A study of Mus musculus with 9 samples.

Results

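The nuclear genes of respiratory complexes II to V were followed in mouse tibialis anterior muscle after knockdown of Ubr4, which encodes a very large E3 ubiquitin ligase. They were taken from the deposited expression table by symbol: Sdha to Sdhd for complex II, symbols starting with Uqcr for complex III, with Cox4 to Cox8 for complex IV, and with Atp5 for complex V. The choice found 49 of 23231 genes, of which 43 encode subunits: 4 of complex II, 8 of complex III, 16 of complex IV and 15 of complex V. The other 6 carry the symbol without being subunits of the mature complex: Cox7a2l (a supercomplex factor), Cox4nb (a neighbour of Cox4i1), Atp5s, Atp5sl, and the pseudogenes Atp5l2 and Atp5l-ps1. The choice reads symbols and no expression value. Cyc1, Ndufa4 and Usmg5, which encode subunits under other names, fell outside the symbols and are given separately.

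All muscles came from C57BL/6 mice aged 6 months and had received siRNA by electroporation. There were 3 groups of 3 libraries: construct 5 against Ubr4, construct 7 against Ubr4, and a non-targeting siRNA (NT). The libraries were made from RNA of the whole muscle, so that fibres which took up no siRNA, and cells other than fibres, were included. Nothing in the labels says that libraries of a group came from separate animals, so that p-values here measure only the spread between these samples, which may be technical.

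Complex II oxidises succinate and passes the electrons to ubiquinone, complex III passes them on to cytochrome c, and complex IV (cytochrome c oxidase) hands them to oxygen. Complexes III and IV pump protons out of the mitochondrial matrix, and complex V (ATP synthase) makes ATP from their return. Complexes III, IV and V are built from nuclear and mitochondrial genes together, while complex II is wholly nuclear. Adult muscle and heart use their own isoforms of several complex IV subunits, encoded by Cox6a2, Cox7a1 and Cox8b.

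The promoters of nuclear respiratory genes are known for sites of the factors NRF1 and GABPA, and several are also targets of the oestrogen-related receptors (ERR) and the muscle factor MEF2. The 250 bases before the transcription start were read from RefSeq (GRCm38.p6), and 34 of the 43 subunit genes had an entry. Those without were Sdhc, Uqcrb, Uqcrc2, Uqcrq, Cox4i1, Cox4i2, Cox6a2, Cox6c and Atp5a1. Below are the stretches of 5 genes to which the results return: Sdha and Uqcrc1, with low values under construct 5, Cox6a1, with a higher mean, Atp5b, with the smallest p between the constructs, and Atp5g3, whose share of its transcript family differed. Each is written 5′ to 3′ on the strand of the gene, in lower case, with matches to a motif in capitals. The positions are chr13:74350241-74350490 on the minus strand for Sdha, chr9:108936398-108936647 on the plus strand for Uqcrc1, chr5:115348959-115349208 on the minus strand for Cox6a1, chr10:128083057-128083306 on the plus strand for Atp5b and chr2:73911327-73911576 on the minus strand for Atp5g3.
Sdha: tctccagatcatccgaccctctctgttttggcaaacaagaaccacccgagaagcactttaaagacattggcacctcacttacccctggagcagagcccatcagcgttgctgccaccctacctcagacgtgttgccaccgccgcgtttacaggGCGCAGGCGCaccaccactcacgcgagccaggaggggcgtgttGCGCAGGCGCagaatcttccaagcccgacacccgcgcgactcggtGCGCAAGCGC
Uqcrc1: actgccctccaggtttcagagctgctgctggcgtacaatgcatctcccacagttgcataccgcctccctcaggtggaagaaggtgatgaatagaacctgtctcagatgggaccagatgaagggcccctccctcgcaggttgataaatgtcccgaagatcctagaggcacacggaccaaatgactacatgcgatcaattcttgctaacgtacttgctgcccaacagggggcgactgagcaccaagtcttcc
Cox6a1: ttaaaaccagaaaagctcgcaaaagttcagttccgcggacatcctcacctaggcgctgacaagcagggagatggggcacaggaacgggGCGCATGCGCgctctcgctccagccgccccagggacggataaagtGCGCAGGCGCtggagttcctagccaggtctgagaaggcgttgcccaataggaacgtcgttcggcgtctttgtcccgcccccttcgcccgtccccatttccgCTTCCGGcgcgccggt
Atp5b: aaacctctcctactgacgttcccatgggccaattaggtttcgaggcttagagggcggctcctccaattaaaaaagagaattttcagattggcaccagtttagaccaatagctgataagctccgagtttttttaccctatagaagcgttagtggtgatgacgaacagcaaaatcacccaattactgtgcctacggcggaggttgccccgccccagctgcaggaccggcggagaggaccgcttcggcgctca
Atp5g3: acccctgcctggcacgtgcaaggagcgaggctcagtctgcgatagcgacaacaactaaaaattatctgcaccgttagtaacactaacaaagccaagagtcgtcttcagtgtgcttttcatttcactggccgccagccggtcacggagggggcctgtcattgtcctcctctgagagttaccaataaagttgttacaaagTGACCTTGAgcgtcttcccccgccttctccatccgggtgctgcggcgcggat

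Both strands were searched for 4 motifs. The NRF1 motif, GCGCA followed by any base and GCGC, was found before 6 of the 34 subunit genes (17.6%), against 9.19% of 7952 promoters of tested genes and 3.86% of all 27025 promoters listed. These were Sdha with 3 matches, Cox6a1 with 2, and Sdhd, Atp5g2, Atp5h and Atp5k. The ETS motif CCGGAAG, which GABPA shares with other factors of its family, was found before 8 subunit genes (23.5%), against 14.7% of tested genes and 7.05% of all listed. Those 8 were Sdhd, Uqcrh, Uqcr11, Cox6a1, Cox6b1, Atp5e, Atp5h and Atp5l. The ERR motif TCAAGGTCA was found only before Atp5g3 of the 34, on the strand opposite to the gene, and in 0.189% of tested genes. For MEF2 the pattern searched was CTA and TAG with any 4 bases between them. It is looser than the usual MEF2 site, in which those 4 bases are A or T. It was found only before Cox5b of the 34, with a C among the 4 bases, and in 2.74% of tested genes. The stretches of Uqcrc1 and Atp5b held no match to any of the 4 patterns. Matches are a description of the letters in this window and not of binding.

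Ubr4 (ENSMUSG00000066036) measured 3.61, 3.80 and 2.73 FPKM with construct 5, 2.25, 2.58 and 3.07 FPKM with construct 7, and 7.82, 10.3 and 9.09 FPKM with NT. FPKM, the unit throughout, corrects a fragment count for gene length and for library size. The log2 change from NT, on log2(FPKM + 1) as throughout, was -1.20 with construct 5 (limma adjusted p = 0.0168) and -1.47 with construct 7 (limma adjusted p = 0.00882), and the exact permutation test gave p = 0.1 for each, the smallest it allows for 3 libraries against 3. For construct 5, leaving out NT replicate 2, NT replicate 3 or construct 5 replicate 1 ended the call (adjusted p 0.0629, 0.0941 and 0.0956), as did testing every gene unfiltered (0.0523). For construct 7 the omissions that ended it were NT replicate 2, NT replicate 3 and construct 7 replicate 2 (adjusted p 0.0598, 0.0877 and 0.0736), and again the unfiltered test (0.0976). Library depth, recovered from the steps of the FPKM values, ran from 29312121 to 45563537 reads, and 3 reads on 1 kilobase corresponded to 0.0658 to 0.102 FPKM, which covers counting error only. The 8 markers of fast fibres summed to 67784 to 77395 FPKM with construct 5, 61335 to 78440 FPKM with construct 7 and 74622 to 80241 FPKM with NT. The 6 markers of slow fibres summed to 55.3 to 85.5 FPKM with construct 5, 61.6 to 84.1 FPKM with construct 7 and 45.3 to 60.9 FPKM with NT. Members differed in direction. With construct 5, 3 fast markers were higher and 5 lower than NT. Of 5 tested slow markers 4 were higher and 1 lower, with log2 changes from -0.40 to 1.25, where 76.7% of all tested genes were higher. Myl3, the most abundant slow marker in NT, measured 7.64, 38.2 and 46.3 FPKM with construct 5 and 37.8, 32.2 and 27.4 FPKM with NT.

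Nearly all subunit transcripts were abundant in this muscle. Cox4i1 of complex IV had the highest mean in NT muscle, 1063 FPKM, followed by Atp5a1 of complex V with 973 FPKM. Uqcrc1 led complex III with 561 FPKM and Sdhd led complex II with 274 FPKM. Between the highest and the lowest member the NT means differed 2.96 times in complex II, 3.26 times in complex III and 9.93 times in complex V. In complex IV they spanned from Cox4i1 to genes near 0. Cox6b2, the testis isoform of subunit 6b, lay between 0.169 and 0.713 FPKM in the 9 libraries. Cox7b2, a second isoform of subunit 7b, was listed at 0 in all 3 NT libraries, reached 0.0558 FPKM at most with construct 5 and 0.144 FPKM at most with construct 7. These 2 genes fell under the filter of a mean of 1 FPKM, so that 47 of 49 members and 41 of 43 subunit genes were tested among 10794 genes.

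**Figure D1:**
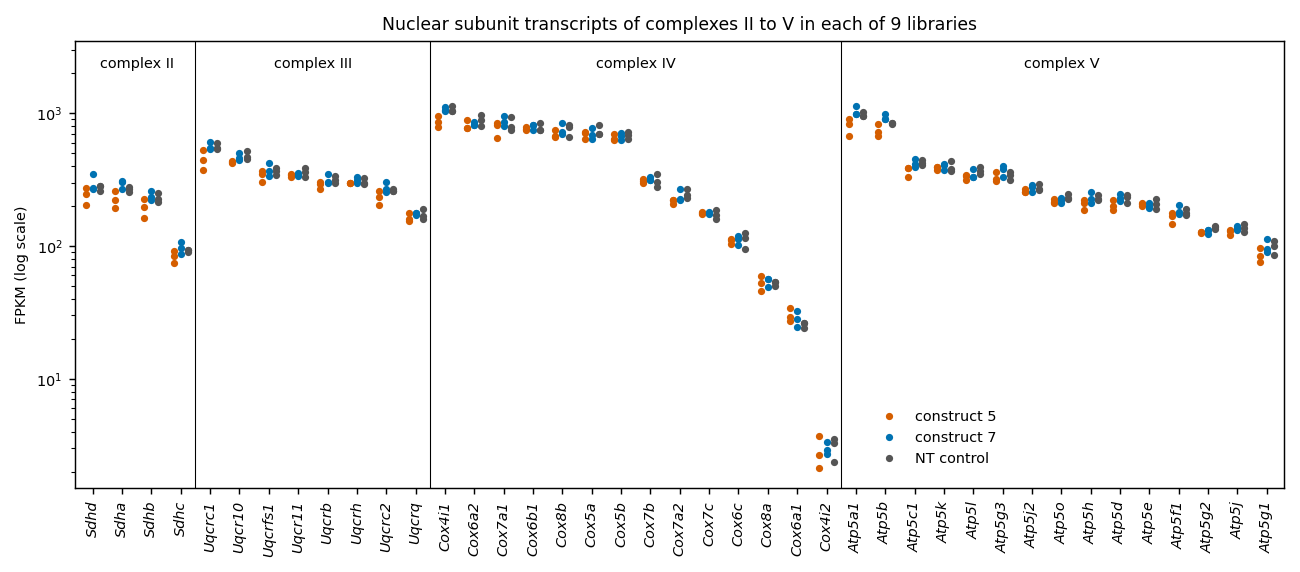
FPKM (log scale) of the 41 tested subunit genes, ordered within each complex by level, with 1 point per library for construct 5, construct 7 and NT. Differences between genes were far larger than those between groups: the NT means of complex V ran from 98.0 FPKM for Atp5g1 to 973 FPKM for Atp5a1.

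With construct 5, the subunit transcripts sat slightly below NT as a body, while most other genes sat slightly above. Of 41 tested subunit genes, 38 had a lower mean with construct 5 than with NT, where 23.3% of all tested genes did, and the median log2 change was -0.11, against 0.13 over all tested genes. The exceptions were Cox6a1 (0.22), Cox7c (0.04) and Cox7b (0.01). Yet limma called 0 of the 47 members at an adjusted p under 0.05, in a comparison in which it called 5.27% of all genes (0.602% as lower). At an unadjusted p under 0.05 there were 7 members, all lower, where 3.4% of all tested genes were lower at that level: Sdha, Uqcrc1, Cox4i1, Atp5a1, Atp5c1, Atp5g2 and the pseudogene Atp5l2. The smallest adjusted p was 0.0718, for Cox4i1. Over 10456 tested genes with a known length, more abundant genes had lower changes with construct 5 (Pearson -0.22, Spearman -0.24). The shares of all genes given here were not matched for level, and most subunit transcripts were abundant. Because the median of all genes lay 0.13 above NT, the subunits' distance from it was -0.24 (median minus median). When libraries were rescaled by median ratios, the median of all genes came to 0.01, that of the subunits to -0.26, and 40 of 41 subunits were lower, 27 of them at an unadjusted p under 0.05 and 0 called. Quantile normalization narrowed the distance to -0.11, with medians of -0.12 for the subunits and -0.01 for all genes, 38 of 41 lower, 5 at an unadjusted p under 0.05 and 0 called. The share of all genes at that unadjusted level was not counted under either scaling, so that the 27 and the 5 have no background to be read against. The genes called overall under each scaling are given with the alternatives below.

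With construct 7, the same transcripts had no common direction: 26 of 41 had a higher and 15 a lower mean than NT, where 57% of all tested genes were higher, and the median change was 0.02, the same as over all genes. Of the 47 members 0 were called, among 0.0556% of all genes, and 0 had an unadjusted p under 0.05, which 9.47% of all genes had. The majority turned with the scaling: 26 of 41 were lower under median ratios and 21 of 41 under quantile normalization. Both comparisons use the same 3 NT libraries, so that their values are given side by side and are not independent.

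Between the constructs, 39 of 41 subunit genes had a higher mean with construct 7 than with construct 5, with Cox6a1 (-0.09) and Atp5e (-0.03) as exceptions, and the median was 0.12, against -0.10 over all tested genes. Of all genes, 24.5% were higher. limma called 0 of 47 members here too, with 1.22% of all genes called. At an unadjusted p under 0.05 there were 8, all higher with construct 7, against 2.57% of all genes: Sdha, Sdhb, Uqcrc1, Uqcrc2, Cox4i1, Atp5a1, Atp5b and Atp5d. The smallest adjusted p was 0.0867, for Atp5b. The distance between the medians, 0.21, came to 0.24 under median ratios, with 41 of 41 higher, and to 0.08 under quantile normalization, with 33 of 41 higher. Over the mean of both constructs against NT, 33 of 41 were lower, where 28% of all genes were, with a median of -0.05. limma called 0 members there (0.00926% of all genes), and 1 had an unadjusted p under 0.05 (19.1% of all genes).

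**Figure D2:**
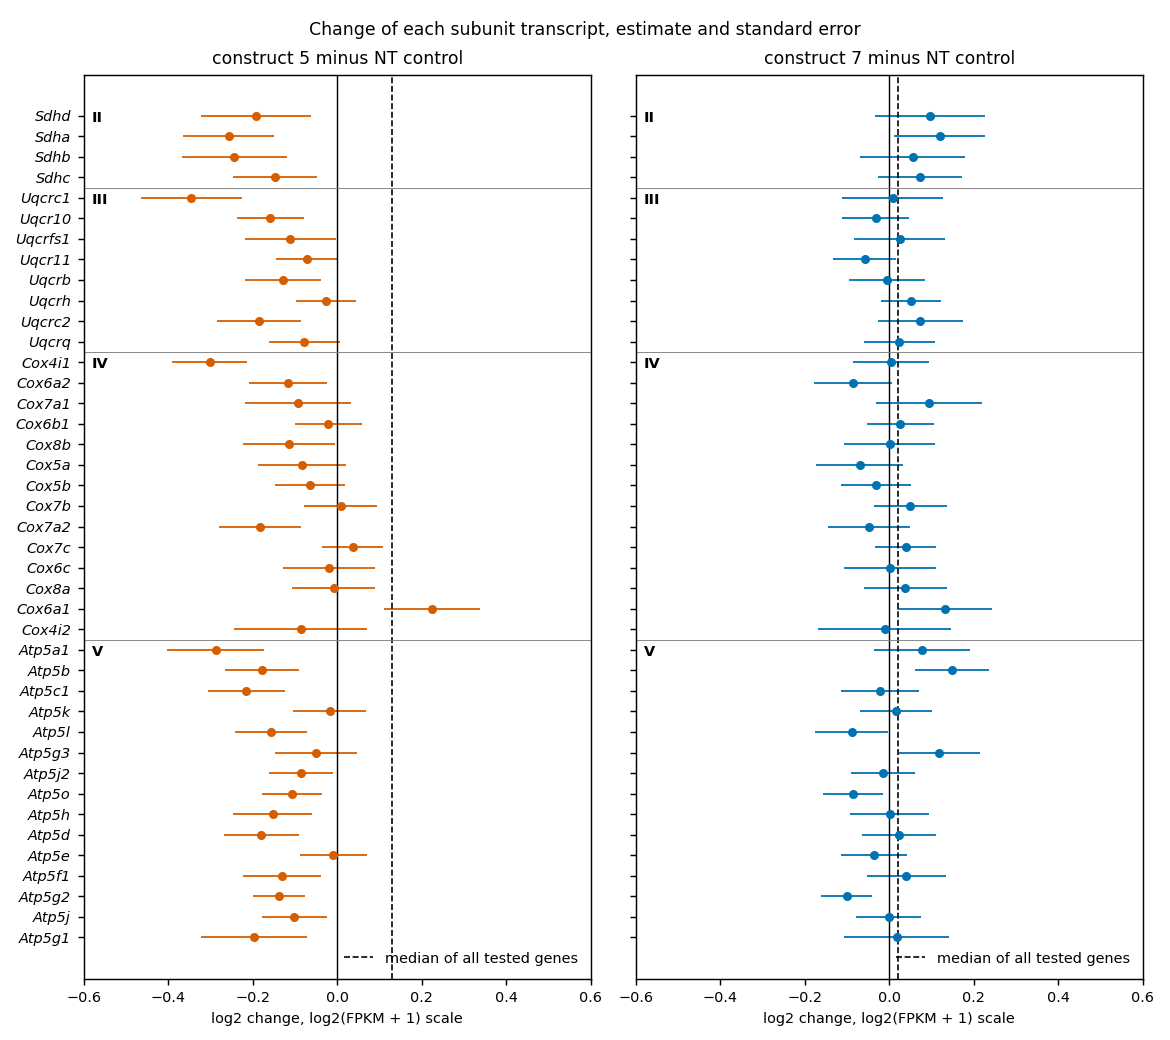
Log2 change of each tested subunit gene against NT, for construct 5 and for construct 7, with lines of 1 standard error; the dashed line is the median of all tested genes. With construct 5, 38 of 41 points lie below 0 and 40 of 41 below the median of all genes (0.13); with construct 7 they lie on both sides of 0.

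The libraries of a group did not weigh equally. Construct 5 replicate 1 had the lowest value of all 9 libraries in 26 of the 41 subunit genes, against 841 of all 10794 genes. It was the lowest of its own group in 34, against 2295 of all genes. Construct 5 replicate 2 was the highest of its group in 32, against 4035 of all genes. Construct 7 replicate 3 was the highest of its group in 32, against 3079, and NT replicate 1 the highest of its group in 36, against 2886. The FPKM summed over all genes was lowest in construct 5 replicate 1 (478776) and highest in NT replicate 1 (532345). Within its group it was highest in construct 7 replicate 3 (513195), but not in construct 5 replicate 2 (494041, against 498691 in replicate 3). The part of these sums in the subunit counts was not tested. When construct 5 replicate 1 was left out, 33 of 41 subunits were lower than NT and the median was -0.07. Leaving out NT replicate 1 gave 31 lower and again -0.07. Either omission left 1 subunit at an unadjusted p under 0.05. For construct 7, 27 of 41 were lower without its replicate 3, and 36 were higher without NT replicate 1. Between the constructs the median was 0.07 once construct 5 replicate 1 was omitted, and 0.05 once construct 7 replicate 3 was.

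**Figure D3:**
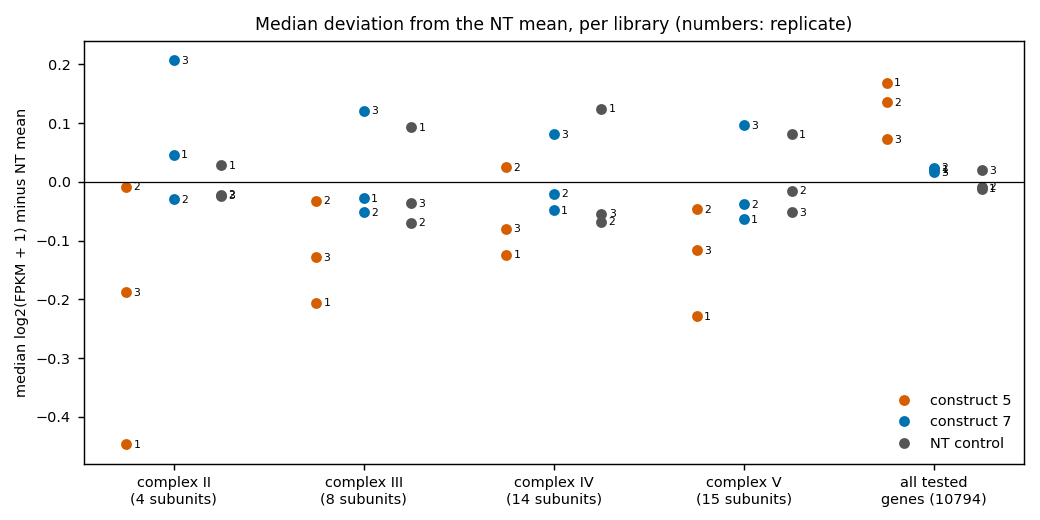
Median deviation of each complex from its NT mean, on log2(FPKM + 1), with 1 point per library, numbered by replicate, for construct 5, construct 7 and NT, and the same for all tested genes at the right. Construct 5 replicate 1 is lowest in each complex (-0.45 in complex II), construct 5 replicate 2 lies near 0, and all 3 construct 5 libraries lie above NT over all genes.

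Some markers of other cells had higher levels in the construct 5 libraries. The 7 macrophage markers found in the table summed to 187 to 345 FPKM with construct 5, 92.5 to 137 FPKM with construct 7 and 115 to 172 FPKM with NT. The 5 fibroblast markers summed to 419 to 654 FPKM with construct 5, 264 to 282 FPKM with construct 7 and 332 to 378 FPKM with NT. All 7 and all 5 had a higher mean with construct 5 than with NT, as 76.7% of all tested genes did. With construct 5 against NT there was 1 call in each list, Lyz2 and Col1a2, both at a limma adjusted p of 0.0491, where 5.27% of all genes were called. Both calls sat at the threshold and held only with the filter at 5 FPKM and without construct 5 replicate 3 or construct 7 replicate 2. Over the alternatives the adjusted p ran from 0.0405 to 0.154 for Lyz2 and from 0.0400 to 0.138 for Col1a2. Construct 5 replicate 2 was the highest library in both sums. Between the constructs, all 7 and all 5 were lower with construct 7, as 8146 of 10794 tested genes were. limma called 1 macrophage and 3 fibroblast markers there (smallest adjusted p 0.0325 and 0.0174), where 1.22% of all genes were called. Without a filter Lyz2 and Col1a2 were not called there (adjusted p 0.0909 and 0.0535). With construct 7 against NT all 7 and all 5 were lower, as 4638 of 10794 genes were, and 0 were called. Endothelial markers summed to 63.1 to 85.3 FPKM with construct 5, 63.2 to 76.8 FPKM with construct 7 and 66.2 to 80.1 FPKM with NT. Schwann cell markers summed to 14.6 to 27.6, 18.2 to 30.2 and 19.4 to 33.0 FPKM in the same order, erythroid markers to 110 to 250, 180 to 219 and 119 to 186 FPKM. Cardiac markers summed to 11.2 to 16.3, 4.47 to 16.0 and 5.30 to 8.21 FPKM. Most of that was 1 gene, Tnnt2, the only tested cardiac marker, at 16.0, 11.2 and 10.7 FPKM with construct 5 and 4.41, 7.75 and 6.61 FPKM with NT. Myh6, Nppa and Tnni3 stayed under 1 FPKM in every library, and Myh6 measured 0.0142, 0.630 and 0.180 FPKM with construct 5 and 0.564, 0.348 and 0.240 FPKM with NT. With construct 5 all 3 tested Schwann cell and both tested erythroid markers had a log2 change below 0, where 23.3% of all tested genes did. The 5 adipocyte markers summed to 9.93, 66.2 and 16.3 FPKM with construct 5, 2.07 to 14.2 FPKM with construct 7 and 6.36 to 12.2 FPKM with NT, so that construct 5 replicate 2 stood apart. Of the brown fat markers, Elovl3 was at 0 in all 9 libraries, and Cidea measured 1.06, 1.79 and 1.07 FPKM with construct 5, 0.539, 1.43 and 1.68 FPKM with construct 7, and 0.733, 1.14 and 0.524 FPKM with NT. The part of these cells in the subunit values was not tested, and in whole muscle fewer fibres and less RNA per fibre cannot be told apart.

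In the comparisons between single groups, complex II had the largest median differences of the 4 complexes, and also the largest spread among libraries of a group, pooled over the 3 groups. For both constructs against NT its median was -0.06, against -0.08 in complex V. All 4 of its subunit transcripts had a lower mean with construct 5 than with NT (median -0.22) and a higher mean with construct 7 than with NT (median 0.08), and the median for construct 7 against construct 5 was 0.29. Without construct 5 replicate 1 the first of these was -0.10 and the third 0.17, and without construct 7 replicate 3 the second was -0.01. The median of complex II differed between libraries of a group with an SD of 0.152 on the log2 scale, pooled over the 3 groups, against 0.0649 to 0.083 in the other complexes. That did not hold for NT alone. There the median deviation from the NT mean ran from -0.02 to 0.03 in complex II, against -0.07 to 0.12 in complex IV and -0.05 to 0.08 in complex V. Summed over the complex, the level was 744 ± 110 FPKM with construct 5, 921 ± 88.9 FPKM with construct 7 and 862 ± 25.8 FPKM with NT (SD, n = 3 each).

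Sdha encodes the flavoprotein that oxidises succinate. It measured 194, 259 and 224 FPKM with construct 5, 301, 267 and 306 FPKM with construct 7, and 269, 257 and 278 FPKM with NT. Its construct 7 libraries all lay above its construct 5 libraries, while construct 5 and NT overlapped. The log2 change was -0.26 with construct 5 (SE 0.11, limma adjusted p = 0.139), 0.12 with construct 7 (adjusted p = 0.786) and 0.38 between the constructs (adjusted p = 0.1001).

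Sdhb, the iron-sulphur subunit, measured 162, 226 and 196 FPKM with construct 5, 232, 221 and 261 FPKM with construct 7, and 248, 212 and 225 FPKM with NT, so that groups overlapped in each comparison. Sdhd, which anchors the complex in the membrane, measured 203, 275 and 245 FPKM with construct 5, 267, 271 and 345 FPKM with construct 7, and 282, 281 and 258 FPKM with NT. Here one library of each siRNA group stood apart, replicate 1 of construct 5 on the low side and replicate 3 of construct 7 on the high side. Sdhc, the other anchor and the least abundant of the 4, averaged 83.6 ± 9.13 FPKM with construct 5, 97.4 ± 10.2 FPKM with construct 7 and 92.3 ± 1.62 FPKM with NT (SD, n = 3 each). Their log2 changes with construct 5 were -0.24 for Sdhb, -0.19 for Sdhd and -0.15 for Sdhc, with limma adjusted p-values of 0.204, 0.321 and 0.319.

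In complex III all 8 subunit transcripts had a lower mean with construct 5 than with NT (median -0.12). With construct 7, 5 were higher and 3 lower (median 0.02), and all 8 were higher with construct 7 than with construct 5 (median 0.12). Summed over the complex, the level was 2535 ± 165 FPKM with construct 5, 2831 ± 166 FPKM with construct 7 and 2819 ± 165 FPKM with NT (SD, n = 3 each). Each construct 5 library lay below each NT library, though the nearest pair differed little, at 2694 FPKM for construct 5 replicate 2 and 2696 FPKM for NT replicate 2. As a share of each library's summed FPKM these 2 groups overlapped, with 0.545% in construct 5 replicate 2 and 0.533% in NT replicate 2. The median with construct 5 was -0.27 under median-ratio scaling, -0.08 without construct 5 replicate 1 and -0.07 without NT replicate 1.

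The core proteins Uqcrc1 and Uqcrc2 form the matrix side of the complex. Uqcrc1 measured 373, 523 and 439.8 FPKM with construct 5, 539, 546 and 609.8 FPKM with construct 7, and 596, 547 and 541 FPKM with NT. All of its construct 5 libraries lay below all of the others. Its log2 change with construct 5 was -0.34 (SE 0.12, limma adjusted p = 0.0977), the lowest of the tested subunit genes, against 0.01 with construct 7 (adjusted p = 0.995) and 0.35 between the constructs (adjusted p = 0.139). Uqcrc2 measured 202, 258.2 and 233 FPKM with construct 5, 256, 269 and 303 FPKM with construct 7, and 268, 258.2 and 259 FPKM with NT. Its construct 5 libraries also lay below the NT libraries, by a narrow margin at replicate 2, and the log2 change was -0.19 (adjusted p = 0.225).

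Among the other subunits, Uqcrfs1, the Rieske iron-sulphur protein that carries electrons to cytochrome c1, averaged 339 ± 32.6 FPKM with construct 5, 373 ± 44.6 FPKM with construct 7 and 366 ± 22.2 FPKM with NT (SD, n = 3 each; log2 change with construct 5 -0.11, limma adjusted p = 0.489). Uqcr10, a small subunit, measured 422, 432 and 433 FPKM with construct 5, 461, 447 and 498 FPKM with construct 7, and 519, 452 and 467 FPKM with NT. Its construct 5 libraries lay close together and below all of the others (log2 change -0.16, adjusted p = 0.194). For the remaining subunits the log2 change with construct 5 was -0.13 for Uqcrb, -0.08 for Uqcrq, -0.07 for Uqcr11 and -0.03 for Uqcrh, the hinge protein. With construct 7 it was below 0 for Uqcr10 (-0.03), Uqcr11 (-0.06) and Uqcrb (-0.00).

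Complex IV had the smallest median difference with construct 5: 11 of its 14 tested subunit transcripts had a lower mean than NT and 3 a higher one (median -0.07). With construct 7, 9 were higher and 5 lower (median 0.00), and 13 of 14 were higher with construct 7 than with construct 5 (median 0.04). The sum was 6145 ± 395 FPKM with construct 5, 6608 ± 225 FPKM with construct 7 and 6630 ± 525 FPKM with NT (SD, n = 3 each), with overlapping groups. The median with construct 5 was -0.20 under median-ratio scaling. Leaving out construct 5 replicate 2 gave -0.11, leaving out its replicate 1 gave -0.01, and leaving out NT replicate 1 gave -0.00.

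Cox4i1, the main isoform of subunit 4 and a regulatory subunit, departed from its complex. It measured 784, 956 and 852 FPKM with construct 5, 1038, 1050.1 and 1109 FPKM with construct 7, and 1125, 1031 and 1032 FPKM with NT. Every construct 5 library lay below every other library. The log2 change was -0.30 with construct 5 (SE 0.09, limma adjusted p = 0.0718), 0.00 with construct 7 (adjusted p = 0.996) and 0.31 between the constructs (adjusted p = 0.104). Its adjusted p with construct 5 was 0.0665 under median-ratio scaling and 0.317 under quantile normalization, where the change was -0.17. Cox4i2, the second isoform, stood at 2.84 ± 0.792 FPKM with construct 5, 3.00 ± 0.329 FPKM with construct 7 and 3.06 ± 0.610 FPKM with NT (SD, n = 3 each).

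Outside the pairs of isoforms, the other subunits of the complex lay closer to NT than Cox4i1. With construct 5 the log2 change was -0.08 for Cox5a and -0.06 for Cox5b, which sit near the catalytic core, -0.02 for Cox6b1 and -0.02 for Cox6c. For Cox7c, one of the 3 subunits with a higher mean, the 3 construct 5 libraries measured 175, 177 and 179 FPKM, within the NT range of 159 to 188 FPKM. Cox7b, likewise, averaged 309 ± 10.6 FPKM with construct 5, 318 ± 9.11 FPKM with construct 7 and 309 ± 33.8 FPKM with NT (SD, n = 3 each). With construct 7 the complex IV subunits with a lower mean were Cox6a2 (-0.09), Cox5a (-0.07), Cox7a2 (-0.05), Cox5b (-0.03) and Cox4i2 (-0.01).

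Subunits 6a, 7a and 8 of complex IV exist as a muscle and a liver isoform, and the muscle form made up most of each pair. The pairs' balance does not depend on the scaling of a library. Cox6a2 was 96.4, 96.3 and 96.6% of subunit 6a transcripts with construct 5, 97.2, 96.7 and 96.2% with construct 7, and 97.4, 96.8 and 97.4% with NT. The construct 5 libraries all lay below NT by a mean of 0.736 percentage points (exact permutation p = 0.1, the smallest possible, and 0.35 adjusted over 7 shares), and both constructs together lay 0.602 points below NT (exact permutation p = 0.0357, adjusted p = 0.125).

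The liver isoform Cox6a1 had the highest log2 change of the tested subunits with construct 5. It measured 29.1, 34.3 and 27.2 FPKM with construct 5, 24.6, 28.1 and 32.2 FPKM with construct 7, and 26.3, 26.5 and 23.9 FPKM with NT. All construct 5 libraries lay above all NT libraries, which 33% of all tested genes also showed. The log2 change was 0.22 (SE 0.11, limma adjusted p = 0.199), and 0.08 under median-ratio scaling. Cox6a2 itself averaged 815 ± 67.3 FPKM with construct 5, 831 ± 23.8 FPKM with construct 7 and 884 ± 81.9 FPKM with NT (SD, n = 3 each). Cox6a1 is also made in cells other than muscle fibres, and the higher macrophage and fibroblast sums given above were in the same 3 libraries; their part in it was not tested.

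For subunit 7a, the muscle isoform Cox7a1 made up 77.8 ± 1.66% with construct 5, 78.5 ± 0.642% with construct 7 and 76.7 ± 1.29% with NT (SD, n = 3 each). The construct 7 libraries all lay above NT (exact permutation p = 0.1, adjusted p = 0.35). Its partner Cox7a2 measured 206, 223 and 222 FPKM with construct 5, 227, 221 and 269.7 FPKM with construct 7, and 269.5, 244 and 228 FPKM with NT, with construct 5 wholly below NT (log2 change -0.18, limma adjusted p = 0.220). For subunit 8, Cox8b made up 93.0 ± 0.471% with construct 5, 93.3 ± 1.07% with construct 7 and 93.4 ± 0.797% with NT, and the groups overlapped. The log2 changes with construct 5 were -0.11 for Cox8b and -0.01 for its partner Cox8a.

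In complex V all 15 subunit transcripts had a lower mean with construct 5 than with NT (median -0.14). With construct 7, 8 were higher and 7 lower (median 0.00), and 14 of 15 were higher with construct 7 than with construct 5 (median 0.15). The sum was 4549 ± 348 FPKM with construct 5, 5194 ± 316 FPKM with construct 7 and 5062 ± 186 FPKM with NT (SD, n = 3 each), with each construct 5 library below each NT library. As a share of each library's summed FPKM these 2 groups overlapped, with 0.987% in construct 5 replicate 2 and 0.983% in NT replicate 3. The median with construct 5 was -0.28 under median-ratio scaling and -0.08 without construct 5 replicate 1. Between the constructs it was 0.09 once construct 5 replicate 1 was omitted, and 0.08 once construct 7 replicate 3 was.

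The catalytic head is a ring of alpha and beta subunits. Atp5b, the catalytic beta subunit, measured 677, 827 and 718 FPKM with construct 5, 904, 899 and 978 FPKM with construct 7, and 843, 835 and 828 FPKM with NT. It was the one tested subunit gene whose construct 5 libraries all lay below, and whose construct 7 libraries all lay above, the NT libraries, though construct 5 replicate 2 came within a narrow margin of NT replicate 3. The log2 change was -0.18 with construct 5 (SE 0.09, limma adjusted p = 0.192), 0.15 with construct 7 (SE 0.09, adjusted p = 0.644) and 0.33 between the constructs (SE 0.09, adjusted p = 0.0867). Atp5a1, the alpha subunit, measured 675, 907 and 826 FPKM with construct 5, 978, 980.0 and 1129 FPKM with construct 7, and 955, 1015 and 949.6 FPKM with NT. Its construct 5 libraries all lay below those of both other groups, with a log2 change of -0.29 (SE 0.11, adjusted p = 0.126).

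The stalk joins the head to the membrane ring. Atp5c1, the gamma subunit of the central stalk, measured 328, 385 and 388 FPKM with construct 5, 413, 390.4 and 454 FPKM with construct 7, and 445, 420.4 and 409.9 FPKM with NT, and construct 5 lay below both other groups (log2 change -0.22, limma adjusted p = 0.144). Of its partners in the central stalk, Atp5d (delta) had a log2 change of -0.18 with construct 5 and Atp5e (epsilon) of -0.01. In the peripheral stalk the values were -0.15 for Atp5h (subunit d), -0.13 for Atp5f1 (subunit b), -0.11 for Atp5o (OSCP) and -0.10 for Atp5j (F6). With construct 7 these 4 lay between -0.09 and 0.04.

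The membrane ring of c subunits turns as protons pass, and 3 genes encode the same mature c protein. Atp5g2 was the only tested subunit gene whose libraries lay below NT with both constructs. It measured 127, 124 and 126 FPKM with construct 5, 124, 132 and 132 FPKM with construct 7, and 135, 141 and 139.5 FPKM with NT. The log2 change was -0.14 with construct 5 (SE 0.06, limma adjusted p = 0.155) and -0.10 with construct 7 (SE 0.06, adjusted p = 0.664). Atp5g1 averaged 85.4 ± 10.5 FPKM with construct 5, 99.2 ± 11.7 FPKM with construct 7 and 98.0 ± 11.6 FPKM with NT (SD, n = 3 each).

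Atp5g3, the most abundant of the 3, took a larger share of c subunit transcripts in every siRNA library than in any NT library. It made up 60.2, 61.9 and 60.4% with construct 5, 60.8, 62.5 and 62.1% with construct 7, and 59.7, 58.8 and 58.3% with NT. The difference from NT was 1.89 percentage points with construct 5 and 2.83 points with construct 7 (exact permutation p = 0.1 for each, adjusted p = 0.35). For both together it was 2.36 points (exact permutation p = 0.0238, adjusted p = 0.125 over 7 shares), so that no share passed at an adjusted p under 0.05. Atp5g3 itself averaged 328 ± 26.5 FPKM with construct 5, 369.7 ± 34.2 FPKM with construct 7 and 339.9 ± 22.9 FPKM with NT (SD, n = 3 each), with overlapping groups.

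**Figure D4:**
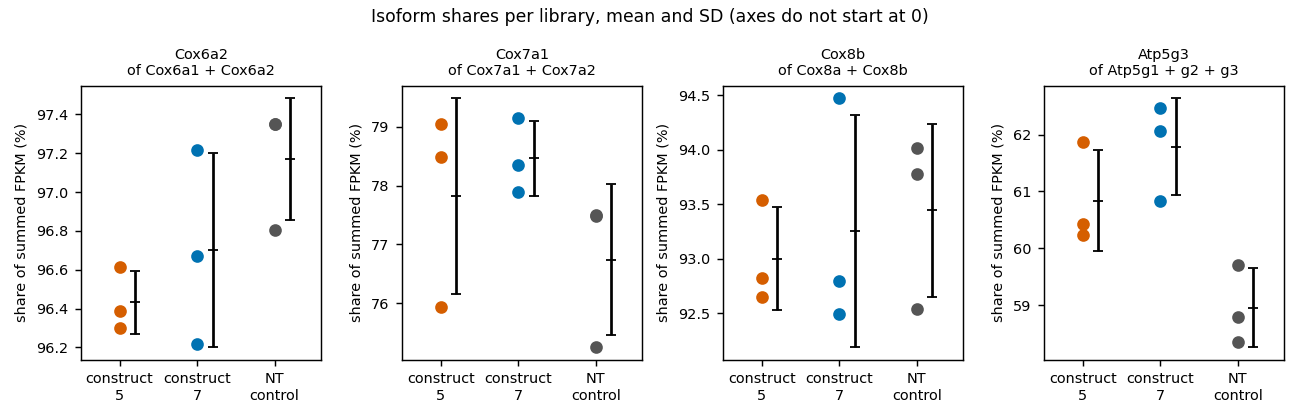
Share of each isoform in the summed FPKM of its family, in percent, with 1 point per library for construct 5, construct 7 and NT, and bars of the mean and SD on axes that do not start at 0. Atp5g3 lies at 60.2 to 62.5% in the 6 siRNA libraries and at 58.3 to 59.7% in the 3 NT libraries, and Cox6a2 lies above 96% throughout.

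The membrane subunits Atp5l (g), Atp5j2 (f) and Atp5k (e) had log2 changes of -0.16, -0.09 and -0.02 with construct 5. Atp5l measured 314, 334 and 343 FPKM with construct 5, 329, 332 and 381 FPKM with construct 7, and 394, 367 and 345 FPKM with NT. Its pseudogenes Atp5l2 and Atp5l-ps1 averaged 23.9 ± 1.94 and 13.0 ± 0.671 FPKM with construct 5, 27.3 ± 4.91 and 13.3 ± 3.24 FPKM with construct 7, and 30.2 ± 3.33 and 15.4 ± 1.40 FPKM with NT (SD, n = 3 each). Reads of near-identical copies can be exchanged between these rows, so that their values are uncertain. Of the other genes carrying the symbols, Cox7a2l had log2 changes of 0.09 with construct 5 and 0.08 with construct 7, Cox4nb of -0.12 and -0.10, Atp5s of 0.04 and 0.11, and Atp5sl of -0.04 and 0.04.

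Counted by libraries, 10 of the 41 tested subunit genes had all construct 5 libraries below all NT libraries, where 5.19% of all tested genes did, and 1 had them above, where 33% did. The 10 were Uqcrc1, Uqcrc2, Uqcr10, Cox4i1, Cox7a2, Atp5a1, Atp5b, Atp5c1, Atp5g2 and Atp5l. With construct 7, 1 gene lay wholly above NT (10.5% of all genes) and 1 wholly below (6.26% of all genes). Between the constructs, 7 lay wholly higher with construct 7, where 3.02% of all genes did, and 0 lay wholly lower, where 22.4% did. The 7 were Sdha, Uqcrc1, Uqcr10, Cox4i1, Atp5a1, Atp5b and Atp5c1. In total, the 43 subunit genes held 2.85 ± 0.168% of the summed FPKM with construct 5, 3.09 ± 0.105% with construct 7 and 3.00 ± 0.0792% with NT (SD, n = 3 each).

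Subunit genes with a longer exonic length, the union of all annotated exons of a gene and not the length of 1 transcript, lay lower with construct 5. Over the 41 tested subunit genes the log2 change with construct 5 and the exonic length (GENCODE M21, log scale) had a Pearson correlation of -0.44 and a Spearman correlation of -0.43, against 0.02 and 0.06 over 10456 tested genes with a length. All 21 subunit genes of 1675 to 6443 bases had a lower mean than NT (median -0.15), and 17 of the 20 genes of 360 to 1587 bases (median -0.09). Over all tested genes within the longer and the shorter range the medians were 0.13 and 0.10. With construct 7 the correlations were 0.10 and 0.12. These are descriptions across genes that share the same libraries. The level of a subunit also ran with its change (Pearson -0.36, Spearman -0.24), as it did over all genes (-0.22 and -0.24).

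**Figure D5:**
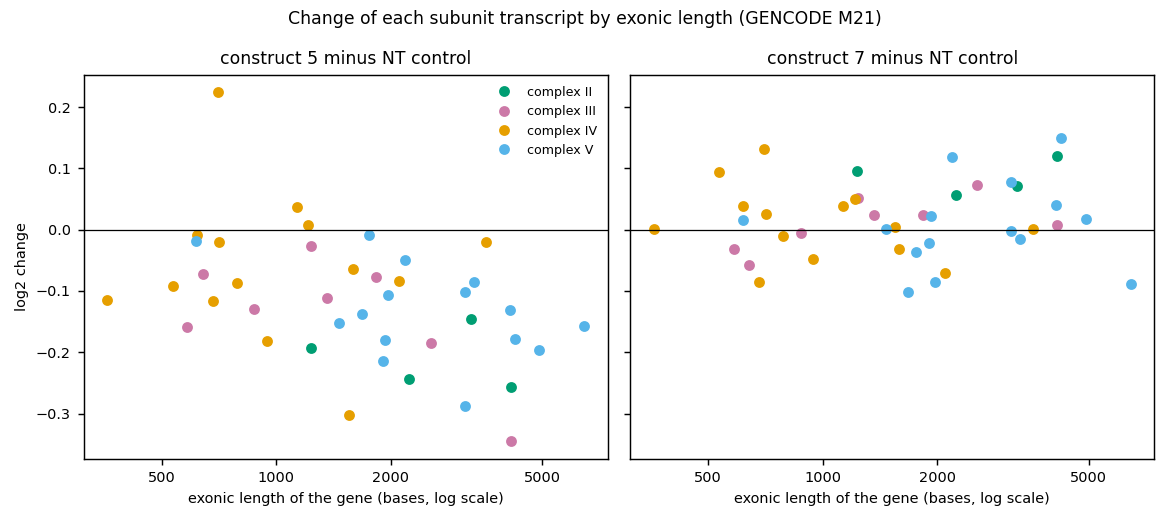
Log2 change against NT of each tested subunit gene by exonic length in bases (log scale), for construct 5 and construct 7, coloured by complex. With construct 5 all 21 genes of 1675 bases or longer lie below 0; with construct 7 no such slope is seen (Pearson 0.10).

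The partners of these subunits were described from lists of the pathway. Of the subunits under other names, Cyc1 (cytochrome c1 of complex III) had 382 ± 61.1 FPKM with construct 5, 463 ± 48.1 FPKM with construct 7 and 463 ± 27.9 FPKM with NT (SD, n = 3 each; log2 change with construct 5 -0.28, limma adjusted p = 0.149). Ndufa4 had -0.07 and Usmg5 -0.05. The inhibitor of complex V in its reverse mode, Atpif1, ran the other way, with 13.5 ± 1.60 FPKM with construct 5, 10.7 ± 3.30 FPKM with construct 7 and 9.77 ± 0.941 FPKM with NT (SD, n = 3 each; log2 change with construct 5 0.43, limma adjusted p = 0.129). All 6 mitochondrially encoded subunits of complexes III to V had a lower mean with construct 5 than with NT (median -0.22), where 23.3% of all tested genes did. Of these 6, 0 were called by limma and 0 had an unadjusted p under 0.05. With construct 7, 4 of the 6 were lower (median -0.02), where 57% of all genes were higher.

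Assembly factors did not share one direction with construct 5, where 76.7% of all tested genes were higher. For complex IV 8 of 13 tested factors had a higher mean than NT and 5 a lower one (median 0.03), and limma called 0, with 1 at an unadjusted p under 0.05, Lrpprc, which stabilises mitochondrial messenger RNA (-0.27, adjusted p = 0.130). The next in order of p was Cox10, which makes haem for the complex (-0.28, adjusted p = 0.161). For complex III all 4 were lower (median -0.13), for complex V 2 of 3 were lower (median -0.06) and for complex II 1 of 3 was lower (median 0.11), with 0 called by limma and 0 at an unadjusted p under 0.05 in each. With construct 7 limma again called 0, among 0.0556% of all genes. At an unadjusted p under 0.05, which 9.47% of all genes had, stood Cox15, also of the haem pathway (0.21, limma adjusted p = 0.421), and Atpaf1, a chaperone of the complex V head (0.26, adjusted p = 0.416).

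Regulators of nuclear respiratory genes were read in the same libraries. Of 10 tested, 7 had a higher mean with construct 5 than with NT, a share near the 76.7% of all tested genes. The other 3 had a lower mean, with a log2 change of -0.14 at the lowest. Only Gabpa, Ppargc1a and Tfam are given singly, and Ppargc1a and Tfam were picked after values were seen. limma called 1, Gabpa, the DNA-binding subunit of the factor named above, where 5.27% of all genes were called. Gabpa measured 6.04, 6.13 and 5.67 FPKM with construct 5, 5.68, 4.88 and 5.46 FPKM with construct 7, and 4.53, 4.20 and 4.89 FPKM with NT. The log2 change with construct 5 was 0.33 (limma adjusted p = 0.0491). This call sat at the threshold: the adjusted p ran from 0.0447 to 0.188 over the alternatives, and it was lost under all scalings, filters, the other pseudocount, the replicate block, the fit of 6 libraries and the omission of any library except construct 7 replicate 2. Ppargc1a, the coactivator known for raising mitochondrial gene expression in muscle, measured 5.13, 6.76 and 6.33 FPKM with construct 5, 6.91, 6.57 and 6.96 FPKM with construct 7, and 4.65, 4.09 and 5.09 FPKM with NT. Every siRNA library lay above every NT library, with log2 changes of 0.33 (limma adjusted p = 0.0751) and 0.48 (adjusted p = 0.259). Of all tested genes, 33% lay wholly above NT with construct 5 and 10.5% with construct 7. The nearest libraries of Ppargc1a were close, at 5.13 FPKM with construct 5 and 5.09 FPKM with NT. Tfam, which packages mitochondrial DNA and activates its transcription, averaged 11.2 ± 0.258 FPKM with construct 5, 10.6 ± 0.571 FPKM with construct 7 and 9.53 ± 0.181 FPKM with NT (SD, n = 3 each), with log2 changes of 0.22 (limma adjusted p = 0.0650) and 0.14 (adjusted p = 0.533).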

How the data were processed

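RNA from mouse tibialis anterior was measured in 9 libraries, 3 per group. The authors deposited 1 table of FPKM values on the mouse build mm9. BWA, STAR and HTSeq are named per the submitters' processing notes, with versions and roles not given in the sources used here, so that strand and the treatment of reads shared by near-identical genes are unknown. FPKM is relative to each library's total, so that abundant genes shift all others.

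Genes with a mean of at least 1 FPKM over the 9 libraries (10794 of 22501 above 0) were put on log2(FPKM + 1) and modelled by limma (version 3.58.1, under R 4.3.3) with an intensity trend in eBayes. The fit took all 9 libraries and the contrasts were each construct against NT, construct 7 against construct 5, and both against NT. Benjamini-Hochberg adjusted p-values over all tested genes within a contrast, under 0.05, were called. Exact two-sided permutation tests were run on 7 isoform shares and on Ubr4. Lists received counts and medians and no test. The fit was tested on simulated data. Depth was recovered from FPKM steps with GENCODE M21 exonic lengths (21323 genes); 72.8% of 51727 values under 50 reads came out whole within 0.1 reads.

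The rule for members reads symbols only, but the members and lists were chosen with earlier results of these data known. Named with full values were, per complex, the most abundant subunit and those of smallest p for each construct, and members that departed from their complex. Members whose groups did not overlap, and the regulators Ppargc1a and Tfam, were added after values were seen. Alternatives were a pseudocount of 0.1, all genes unfiltered, a minimum mean of 5 FPKM, scaling by median ratios or quantiles, a replicate block, the 6 libraries of a contrast alone, and leaving out each library. Motifs were searched, and figures drawn with matplotlib 3.10.9, in Python 3.11.15 (numpy 2.4.6, pandas 2.3.3).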

Additional observations from a re-analysis of the deposited data

How the results depend on the processing

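The number of members called stayed at 0 in all 4 contrasts under each alternative run. The fit of 6 libraries was run for the 3 contrasts between single groups and not for both constructs against NT. Under median-ratio scaling the medians of complexes III, IV and V moved beyond the spread between libraries: with construct 5 to -0.27, -0.20 and -0.28, between construct 7 and construct 5 to 0.25, 0.16 and 0.27, and for both constructs against NT to -0.15 in complex III and -0.16 in complex V. That scaling sets the median of all genes near 0. Over all alternatives the medians with construct 5 stayed at or below 0, from -0.36 to -0.10 in complex II, -0.27 to -0.07 in complex III, -0.20 to -0.00 in complex IV and -0.28 to -0.08 in complex V; with construct 7 each crossed 0.

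Ubr4 kept its direction throughout. With no filter its adjusted p was 0.0523 with construct 5, 0.0976 with construct 7 and 0.0677 for both, at unchanged log2 values of -1.20, -1.47 and -1.33. With 1 library left out, its log2 change ran from -1.29 to -1.09 with construct 5, -1.56 to -1.38 with construct 7 and -1.43 to -1.25 for both.

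The replicate numbers were taken from the labels, which do not say whether same-numbered libraries belong together. Deviations from the group means correlated at -0.36 to 0.31 between same-numbered libraries and at -0.57 to 0.52 between differently numbered ones. With 3 libraries per group these values cannot decide whether the numbers mark a pairing. With the replicate block, members called stayed at 0, the smallest adjusted p with construct 5 was 0.111, and no complex median moved; genes called overall were 11 with construct 5, against 569 without it, and 217, against 132, between the constructs. Over all genes, the count with construct 5 was 316 with a pseudocount of 0.1, 5 with no filter, 204 with the filter at 5 FPKM, 78 with median-ratio and 86 with quantile scaling, 246 with 6 libraries, and 1 to 581 with 1 library left out. In the same alternatives the count between the constructs was 106, 10, 48, 79, 58, 23 and 3 to 387.

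With 3 libraries against 3, an exact permutation p cannot fall below 0.1. Depth, recovered only in part, sets no interval on single values.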

Other observations

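Complex I, the proton pump that passes electrons from NADH to ubiquinone, was read beside the other complexes. Of 35 tested nuclear subunit genes of complex I, 34 had a lower mean with construct 5 than with NT (median log2 change -0.12), where 23.3% of all tested genes did. limma called 0, where it called 5.27% of all genes. At an unadjusted p under 0.05 there were 9, all lower, where 3.4% of all genes were lower at that level. The smallest p was that of Ndufs7, which averaged 139 ± 20.7 FPKM with construct 5, 170.3 ± 16.9 FPKM with construct 7 and 181 ± 10.99 FPKM with NT (SD, n = 3 each; log2 change with construct 5 -0.38, limma adjusted p = 0.0741). Ndufa10 followed with a log2 change of -0.30 (adjusted p = 0.0790). With construct 7, 27 of 35 were lower (median -0.03), where 57% of all genes were higher. There 0 were called by limma and 0 had an unadjusted p under 0.05, which 9.47% of all genes had. Between the constructs, 30 of 35 were higher with construct 7 than with construct 5 (median 0.08), where 24.5% of all genes were. Length ran with the change with construct 5 here as well (Pearson -0.33, Spearman -0.36 over the 35 genes).

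Among the mitochondrially encoded subunits, mt-Atp8 spread most between libraries. It measured 457, 890.5 and 863 FPKM with construct 5, 2149.6, 894 and 2744 FPKM with construct 7, and 1326, 957 and 776 FPKM with NT. The log2 change with construct 7 was 0.81 (limma adjusted p = 0.594).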
